A study of Mus musculus with 6 samples.

Results

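Nuclear pore and nuclear transport genes were examined in spinal cord endothelial cells (ECs) of mice with and without endothelial TDP-43, the RNA-binding protein encoded by Tardbp. With earlier results of these data known, members were chosen by a rule on gene names. They are the protein-coding genes whose symbol starts with Nup, Kpna, Kpnb, Ipo, Xpo, Tnpo or Ranbp followed by a number, with Xpot included, and the gene table held 52 of them among 56748 genes. Of these, 48 had enough reads to be tested, among 13107 tested genes in all. ECs were sorted from spinal cords of mice on a C57BL/6 background at postnatal day (P) 16 and gave 6 RNA-Seq libraries. The labels do not say whether each library came from 1 animal, and each library is called a mouse here. The 3 control mice carried Tardbpflox, an allele with loxP sites around exon 3, without Cre. The 3 knockout mice (TDP-43iΔEC, labelled KO) carried Cdh5(PAC)-CreERT2 in addition, a tamoxifen-inducible Cre driven by the endothelial Cdh5 promoter. Both groups carried the floxed allele and received tamoxifen (1 mg/mL) from P5 to P7, so Cre and the deletion differed between the groups and the drug did not, and the effect of Cre itself cannot be told apart from that of the deletion.

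The nuclear pore is a channel through the nuclear envelope built from nucleoporins in many copies. A Y-shaped complex and an inner ring form its scaffold, phenylalanine-glycine-rich nucleoporins fill the channel, and filaments and a basket extend on the cytoplasmic and nuclear faces. Importins and transportins carry proteins in, exportins carry proteins and RNAs out, and the small GTPase Ran sets the direction. TDP-43 itself is a nuclear protein that enters through the importin alpha and importin beta 1 pathway, and it binds UG-rich RNA.

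Library totals lay between 25704871 and 47270654 estimated counts, so that 3 counts equalled 0.0617 to 0.116 CPM, the count scaled to the TMM-adjusted library total. The targeted gene checked the labels. Tardbp stood at 55.3, 61.9 and 58.5 CPM in control mice 1, 2 and 3, and at 26.6, 16.1 and 11.8 CPM in KO mice 1, 2 and 3. No KO mouse reached the lowest control mouse (log2 fold change -1.62, SE 0.408, limma adjusted p = 0.287; exact permutation p = 0.1, two-sided, the smallest that 3 against 3 allows). These counts cover the whole gene, not exon 3 alone, and 33.1% of its exonic bases overlap Masp2 on the opposite strand. The 8 endothelial markers summed to 10800 to 14200 CPM in control libraries and 9680 to 11500 CPM in KO libraries, and leukocyte markers stayed under 1 CPM in every library. Mural cell markers summed to 510 to 889 CPM in control and 387 to 925 CPM in KO libraries. Astrocyte markers summed to 5.69 to 22.7 CPM in control and 0 to 25.6 CPM in KO libraries. All 4 hemoglobin genes passed the adjusted threshold used below, and they summed to 6900 to 10500 CPM in control libraries against 2020 to 2870 CPM in KO libraries, and oligodendrocyte markers, of which none of 5 passed it, summed to 296 to 591 against 15.5 to 461 CPM. Neuron markers, none of 3 tested passing, summed to 5.13 to 12.0 CPM in control libraries and 1.93 to 3.21 CPM in KO libraries. Control library 2 stood apart, with 16.0% of the tested genes at 0 counts against 1.88% to 9.03% in the other libraries. The part that these differences between libraries played in the results below was not tested. Values without control 2 are given beside the members it shifted most, except Nup107, which also had 0 counts in control 3.

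No nuclear pore or transport gene passed the test at an adjusted p under 0.05 (limma on voom-transformed counts, Benjamini-Hochberg over all genes). The same threshold was passed by 18 of all tested genes (0.137%), 4 higher (0.0305%) and 14 lower (0.107%) in KO mice. At an unadjusted p under 0.05, 5 of the 48 members (10.4%) differed, beside 9.27% of all tested genes, so their share was near the background. Higher in KO mice were Kpna2, Nup107, Xpo5 and Nup50 (8.33% of members, 4.26% of all genes). Lower was Kpnb1 (2.08% of members, 5% of all genes). The 3 KO mice lay entirely above or below the 3 control mice for 10 members (20.8%), beside 15.3% of all genes. Of these 10, the 6 higher in KO (12.5%, beside 7.4% of all genes) were the same 4 genes with Nup43 and Nup35. The 4 lower (8.33%, beside 7.93% of all genes) were Kpnb1, Xpot, Nup205 and Nup188. Nup107, Nup43 and Nup35 had 0 counts in at least 1 control library. They had enough reads to be tested only with KO libraries counted. Where every library had to hold at least 10 counts, 42 members were tested, and 4 of them were higher and 4 lower without overlap. Of all genes, 16.3% were then without overlap in either direction. Fewer cells expressing a gene and less RNA per cell cannot be told apart in such bulk libraries.

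Across the 48 members the log2 fold change was above 0 for 29 (60.4%), beside 49.3% of all genes, with a median of 0.23 against -0.02 over all genes. The members' median was 0.39 with scaling to library size only, which moved the median of all genes to 0.18, and 0.48 with scaling to endothelial markers, which moved it to 0.22. Without control 2 the members' median was 0.07, with -0.17 for all genes. The data did not narrow most members closely. The 95% interval stayed within 1 log2 unit of no difference for 5 members (Ipo5, Ipo11, Tnpo3, Ranbp1 and Ranbp2) and reached beyond 2 log2 units on at least 1 side for 26.

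**Figure D1:**
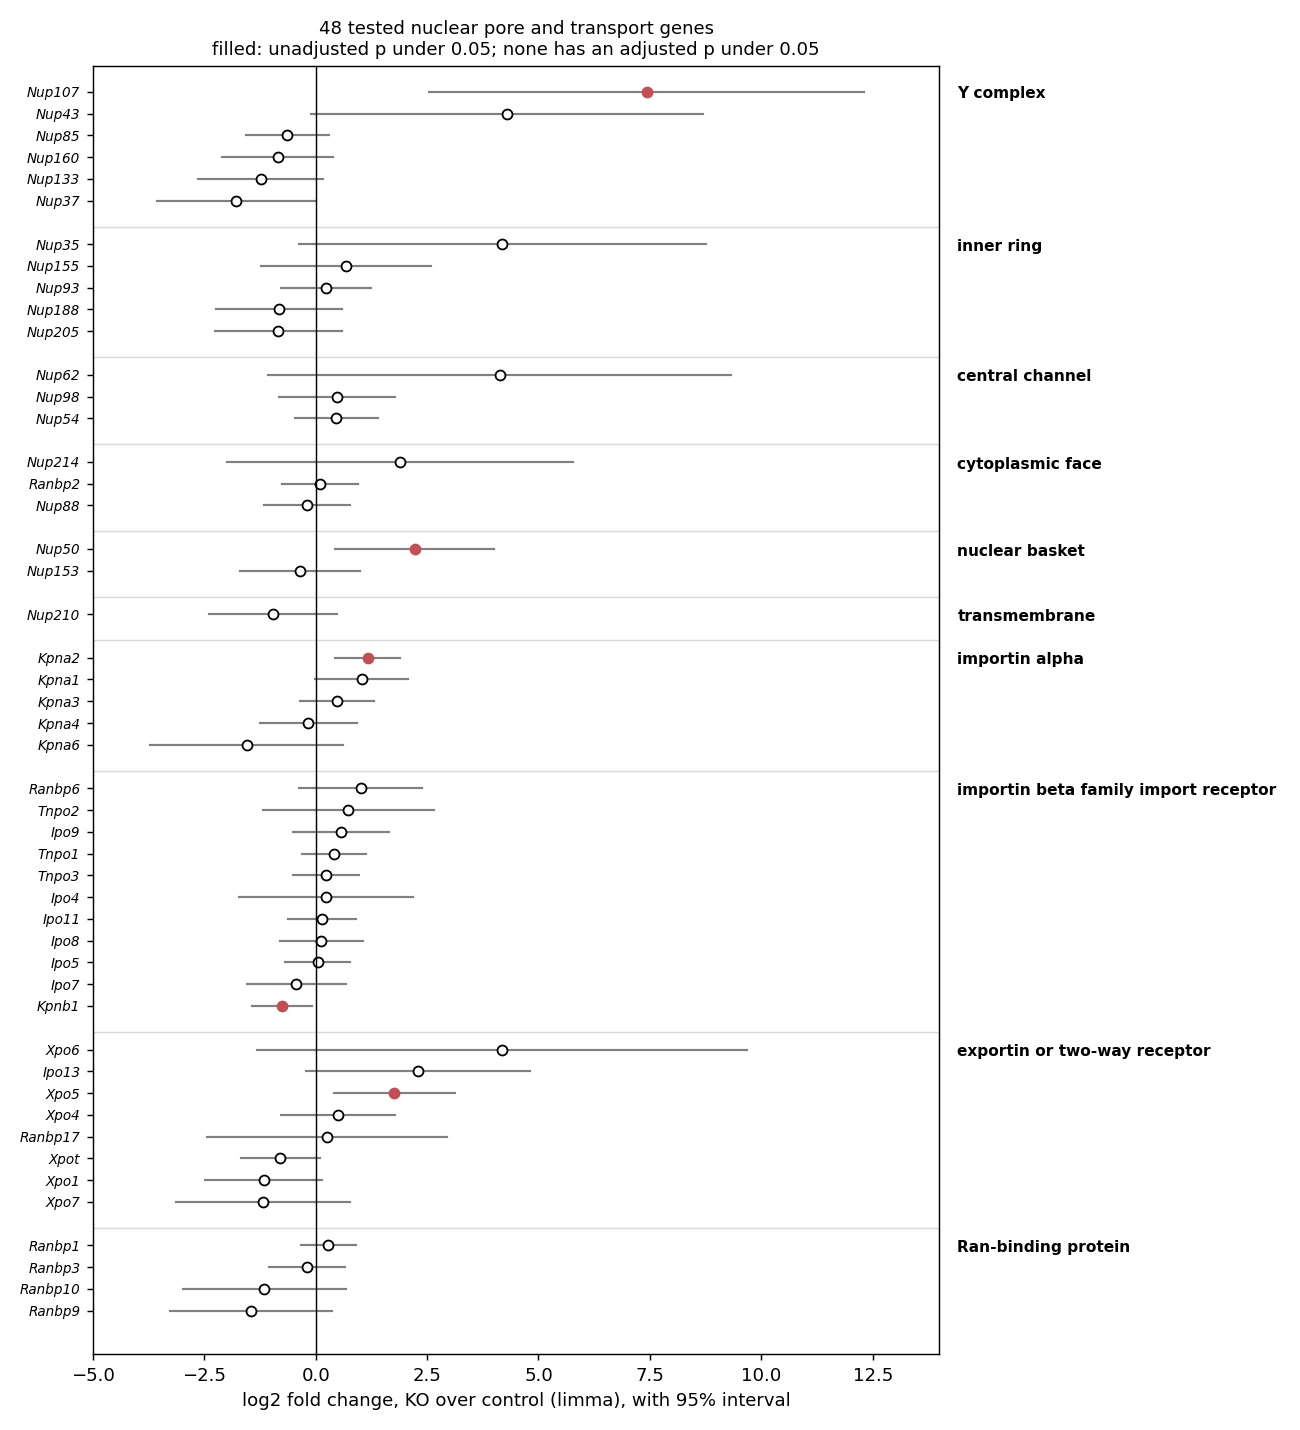
Log2 fold change of KO over control mice (x axis, limma) for each of the 48 tested genes (y axis), grouped by role, with 95% intervals as lines. Filled points have an unadjusted p under 0.05, and none has an adjusted p under 0.05. The intervals of 5 genes exclude 0, namely Nup107, Nup50, Kpna2 and Xpo5 above it and Kpnb1 below it, and the widest intervals belong to genes with 0 counts in at least 1 control library.

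Importin alpha proteins recognize the classical nuclear localization signal on cargo, and Kpnb1 (importin beta 1) carries the pair through the pore. Kpna2, an importin alpha, had the smallest p of all members. It was measured at 67.1, 53.2 and 59.2 CPM in control mice 1 to 3 and at 141, 187 and 84.9 CPM in KO mice 1 to 3. All KO mice lay above all control mice, with KO 3 closest to the control mice. The mean was 59.8 ± 6.99 CPM in control and 137 ± 51 CPM in KO mice (SD, n = 3 each), a log2 fold change of 1.17 (SE 0.324, 95% interval 0.43 to 1.90, limma adjusted p = 0.341). DESeq2 called it, with a log2 fold change of 1.24 and an adjusted p of 0.0358, the only member called by any alternative, where adjusted p for Kpna2 ranged from 0.0358 to 0.647. That test called 247 of all 13107 tested genes, beside 1 of the 48 members. Without control 2 its log2 fold change was 1.07, and without KO 2 it was 0.95.

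Kpna2 has a near-identical retrogene, and 92.6% of the 51-base stretches of its transcript, 51 bases being the read length, also occur in Kpna2rt. The gene table lists that copy as Gm10184, and its counts were 2.60% to 4.55% of those of Kpna2 in the 6 libraries. The copy stood at 1.75, 1.62 and 2.02 CPM in control and 4.61, 8.51 and 2.24 CPM in KO mice, in the same order as Kpna2 among KO 2, KO 1 and KO 3. How reads were split between the copies is therefore uncertain.

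Kpnb1 went the other way. Its values were 66.2, 76.8 and 86.3 CPM in control and 42.2, 36.8 and 62.4 CPM in KO mice. The highest KO mouse, KO 3, stayed just under the lowest control mouse. The log2 fold change was -0.76 (SE 0.296, 95% interval -1.43 to -0.09, limma adjusted p = 0.494), and it lay between -0.92 and -0.52 under every alternative. With scaling to library size only, its log2 fold change was -0.57. An antisense gene, Gm57404, overlaps 14.68% of its exonic bases, and the library kit does not mark strand.

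The other importin alpha genes did not follow Kpna2 alike. Kpna1 was measured at 61.9, 17.2 and 37.0 CPM in control and 56.7, 98.8 and 67.1 CPM in KO mice. The groups overlapped, with control 2 lowest (log2 fold change 1.04, 95% interval -0.01 to 2.08, limma adjusted p = 0.54, and 0.56 without control 2). Kpna6 stood at 8.60, 15.5 and 24.0 CPM in control and 2.82, 17.1 and 3.89 CPM in KO mice. Here KO 2 lay among the control mice (log2 fold change -1.55, SE 0.952). Kpna3 and Kpna4 had log2 fold changes of 0.48 and -0.16, with overlapping groups.

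Per kilobase of exonic length, which allows a rough comparison of levels between genes, Kpna2 was the most abundant importin alpha gene in every library. These lengths join the exons of all annotated transcripts of a gene, not only those expressed, so orders per kb depend on the annotation. The 5 detected importin alpha genes summed to 30.9, 29.4 and 30.6 CPM per kb in control mice and to 56.9, 71.3 and 37.9 CPM per kb in KO mice. Kpna2 made up 61.7%, 51.5% and 55.0% of that sum in control and 70.2%, 74.4% and 63.6% in KO mice, without overlap. The ratio of Kpna2 to Kpnb1 per kb was 1.98, 1.35 and 1.34 in control and 6.51, 9.93 and 2.66 in KO mice. This pair was chosen after its values were seen, and the ratio is given without a test.

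**Figure D2:**
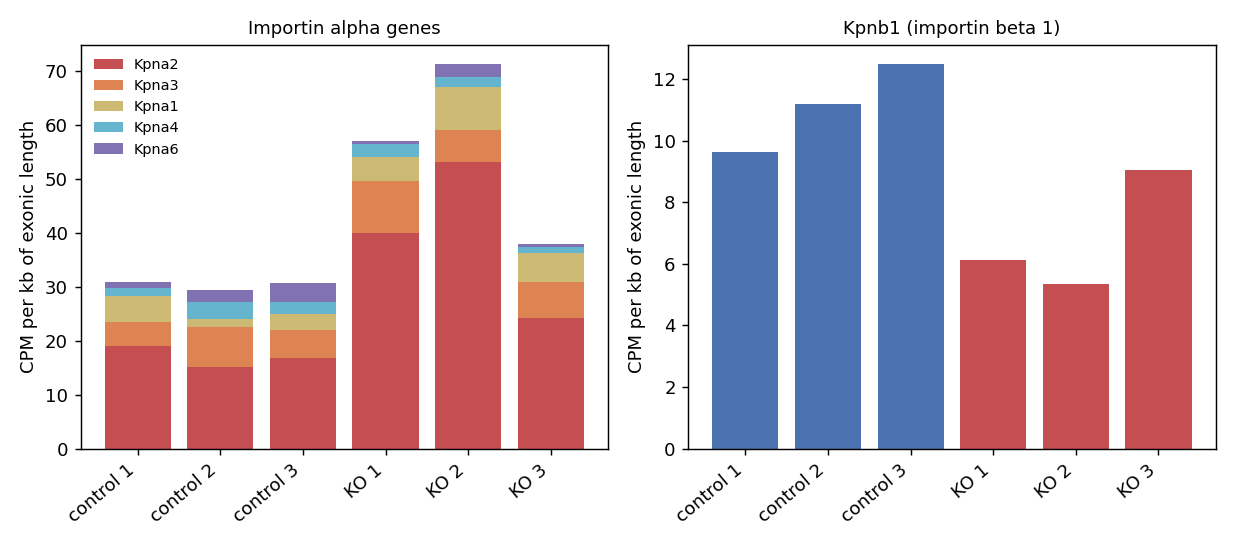
Stacked levels of the importin alpha genes (left) and of Kpnb1 (right) in CPM per kb of exonic length (y axes), 1 bar per mouse (x axes). The importin alpha sum lies between 29.4 and 30.9 in the control mice and between 37.9 and 71.3 in the KO mice, most of it Kpna2, while the Kpnb1 bars of the KO mice are the 3 shortest.

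Sequence around Kpna2 is shown because it had the smallest p of the members. Kpna2 lies on the minus strand at chr11:106879455-106890367 (GRCm39). The 250 bases before its annotated start, chr11:106890368-106890617, hold 1 CCAAT box and 1 CHR element, elements known from promoters of cell cycle genes. In the sequence, written 5′ to 3′ along the gene, the capitals mark TTCAAA, which is the CHR element TTTGAA read on the other strand, and CCAAT.
Kpna2 promoter: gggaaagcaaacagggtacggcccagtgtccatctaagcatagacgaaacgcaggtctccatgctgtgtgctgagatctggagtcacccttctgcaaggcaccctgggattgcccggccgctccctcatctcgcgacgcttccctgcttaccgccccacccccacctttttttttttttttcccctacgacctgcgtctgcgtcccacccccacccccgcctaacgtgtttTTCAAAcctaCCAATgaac

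Among promoters of the same length, searched on both strands, CCAAT was present for 20 of the 48 members (41.7%) and 35.5% of all tested genes. A CHR element, TTTGAA or TTCGAA, was present for 9 members (18.8%) and 14.6% of all genes. An E2F element, written TTTCGCGC, TTTGGCGC or TTTCCCGC, was found for 0 members and 2.53% of all genes. The 250 bases before the Kpnb1 start held CCAAT and no CHR element, and those of Nup107 and Xpo5 held none of these elements. These matches describe letters in a window and not binding.

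Proliferation genes were also higher in KO mice by their sum. The 21 genes of that list, among them Mki67, Cdk1 and Top2a, summed to 318, 176 and 309 CPM in control and 366, 817 and 590 CPM in KO mice, without overlap. None passed the adjusted threshold in limma (0.0305% of all genes higher), 2 (9.52%) were higher at an unadjusted p under 0.05, beside 4.26% of all genes, and 7 of 21 (33.3%) were higher in every KO mouse, beside 7.4% of all genes. Control 2 had 0 counts for 12 of the 21, beside 16.0% of all tested genes. Among the genes higher in every KO mouse, Cdk1, Birc5, Mki67, Mcm5 and Ccnb1 were at 0 in control 2. The paper reported decreased EC proliferation by Ki67 staining in KO retinas of younger mice. That is protein in another tissue, at another age and after an earlier tamoxifen course. KO 2 was highest for both Kpna2 and the sum, but KO 1 had more Kpna2 than KO 3 at a lower sum. Whether proliferation and the Kpna2 level are linked was not tested.

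**Figure D3:**
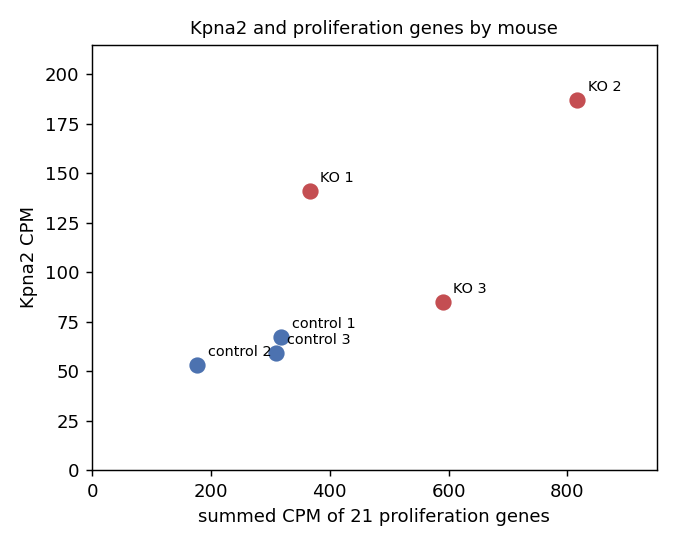
Kpna2 level in CPM (y axis) against the summed CPM of 21 proliferation genes (x axis), 1 point per mouse, control mice in blue and KO mice in red. Control mice lie at the lower left, with Kpna2 at 53.2 to 67.1 CPM and sums of 176 to 318 CPM, and no KO mouse lies among them.

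Among the scaffold nucleoporins, the Y complex coats both faces of the pore, and its 6 subunits named Nup differed from one another in direction. Nup107, a stem subunit, had 209, 0 and 0 counts in control libraries and 771, 533 and 301 counts in KO libraries. In CPM these were 4.87, 0 and 0 against 15.9, 17.1 and 11.6. The KO mean was 9.15 times the control mean (14.9 ± 2.88 against 1.62 ± 2.81 CPM, SD, n = 3 each), with a limma adjusted p of 0.36. The fitted log2 fold change depends on how counts of 0 are treated and is not quoted. Nup43, at 6.41, 0 and 2.41 CPM in control and 11.7, 10.4 and 11.8 CPM in KO mice, was also higher in every KO mouse, with a KO mean 3.84 times the control mean (limma adjusted p = 0.544; log2 fold change 1.52, SE 0.851, without control 2).

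The 4 remaining Nup subunits had log2 fold changes below 0. Nup37 was measured at 15.0, 27.5 and 36.2 CPM in control and 3.21, 18.6 and 15.2 CPM in KO mice. The groups overlapped and KO 1 was lowest (log2 fold change -1.78, SE 0.787, limma adjusted p = 0.54, and -0.54 without KO 1). Nup133 had a log2 fold change of -1.23 and Nup160 of -0.86. Nup85, the most abundant of these 6 per kb, stood at 46.5, 53.8 and 38.9 CPM in control and 19.9, 53.8 and 28.9 CPM in KO mice (log2 fold change -0.63, SE 0.41), and KO 2 reached the highest control mouse. The subunits Sec13, Seh1l and Ahctf1, which the naming rule does not take, had log2 fold changes of 0.21 (SE 0.261), 0.87 (SE 0.537) and 0.57 (SE 0.427), with overlapping groups.

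The inner ring, which anchors the channel nucleoporins, had 1 gene higher and 2 lower in every KO mouse, and none passed a threshold. Nup35 stood at 8.25, 0 and 9.17 CPM in control and 17.1, 24.2 and 14.1 CPM in KO mice, a KO mean 3.18 times the control mean (limma adjusted p = 0.558; log2 fold change 1.04, SE 0.571, without control 2). Nup188 was lower in KO mice, 18.7, 19.6 and 3.78 CPM against 21.5, 30.0 and 21.5 CPM (log2 fold change -0.83, SE 0.624), with KO 1 and KO 2 just under the control mice and KO 3 far lower. Nup188 shares 36.63% of its exonic bases with Sh3glb2 on the other strand. Nup205, its paralog, was measured at 14.8, 22.5 and 16.7 CPM in control and 14, 5.36 and 8.95 CPM in KO mice (log2 fold change -0.84, SE 0.629). Nup93, the most abundant inner ring gene per kb, stood at 20.8, 45.8 and 51.1 CPM in control and 41.8, 61.4 and 29.5 CPM in KO mice, with full overlap (log2 fold change 0.23, 95% interval -0.77 to 1.24). Nup155 had a log2 fold change of 0.68, which rested on KO 1 with 50.7 CPM beside 8.70 and 8.10 CPM in the other KO mice.

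Of the central channel genes, Nup62, a core component of the channel, was at 18.5, 0 and 15.2 CPM in control and 26.4, 53.2 and 13.0 CPM in KO mice. Control 2 was the library at 0, and the groups overlapped (KO mean 2.75 times the control mean, limma adjusted p = 0.591; log2 fold change 0.69, SE 0.613, without control 2). Nup54, its channel partner, was steadier in KO mice, at 37.5, 41.6 and 35.6 CPM against 16.6, 31.0 and 41.7 CPM (log2 fold change 0.46, SE 0.41). Nup98, which also has roles off the pore in transcription, had a log2 fold change of 0.47 (SE 0.574) that was -0.22 without control 2.

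At the cytoplasmic face, where exported mRNA is released, all 3 genes overlapped between groups. Nup214 stood at 65.0, 0.097 and 40.4 CPM in control and 32.9, 15.1 and 36.1 CPM in KO mice. Its log2 fold change was 1.90 (SE 1.71) with control 2, which had 4 counts, and -0.95 without it. Nup88, the partner of Nup214, was at 66.0, 147 and 48.9 CPM in control and 75.7, 71.4 and 53.3 CPM in KO mice, with control 2 highest (log2 fold change -0.19, SE 0.424). Ranbp2, the filament protein that binds Ran, had a log2 fold change of 0.09 (95% interval -0.76 to 0.94).

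Nup50, a nuclear basket protein that helps release cargo from importin alpha, was at 34.0, 1.98 and 14.2 CPM in control and 51.3, 38.7 and 52.6 CPM in KO mice. Every KO mouse lay above every control mouse, and control 2 was lowest by far. The mean was 16.7 ± 16.1 CPM in control and 47.5 ± 7.67 CPM in KO mice (SD, n = 3 each), a log2 fold change of 2.22 (SE 0.788, limma adjusted p = 0.471) that was 1.1 without control 2. Nup153, another basket gene, had a log2 fold change of -0.35 (SE 0.592), and the basket protein Tpr, outside the naming rule, one of -0.10 (SE 0.349), with overlapping groups for both. The transmembrane nucleoporin Nup210 was at 33.4, 13.9 and 39 CPM in control and 8.29, 25.4 and 17.4 CPM in KO mice (log2 fold change -0.96, SE 0.634).

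**Figure D4:**
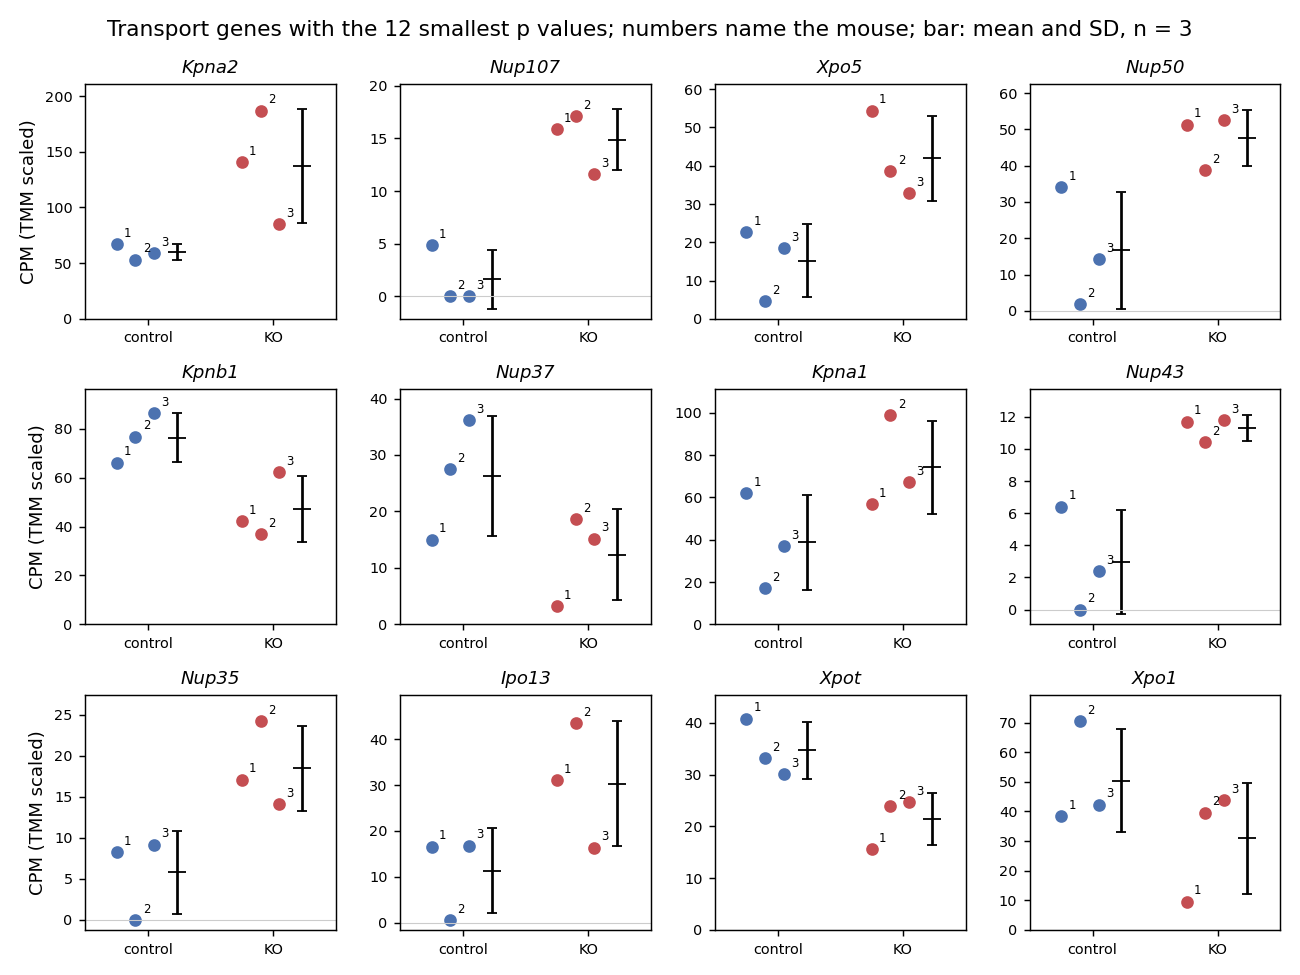
CPM (y axes, linear) in control and KO mice (x axes) for the 12 members with the smallest p, with points numbered by mouse and bars for mean ± SD (n = 3). Kpna2, Nup107, Xpo5, Nup50, Nup43 and Nup35 lie higher in every KO mouse and Kpnb1 and Xpot lower, while Nup37, Kpna1, Ipo13 and Xpo1 overlap between the groups.

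For each of the 10 importin beta family import receptors other than Kpnb1 the groups overlapped. Of all 11 genes, 9 had a log2 fold change above 0, beside 60.4% of the members and 49.3% of all genes. The direction reversed under at least 1 alternative for Ipo4, Ipo5, Ipo7, Ipo8, Ipo11 and Tnpo2. The group's values ran from -0.76 for Kpnb1 to 1.01 for Ranbp6. Tnpo1 (transportin 1), an import receptor for hnRNPs, was at 46.0, 73.4 and 57.5 CPM in control and 98.3, 74.7 and 54.7 CPM in KO mice. The groups overlapped, with KO 1 highest (log2 fold change 0.42, 95% interval -0.30 to 1.14). Ranbp6 stood at 9.62, 13.3 and 7.52 CPM in control and 13.2, 21.9 and 36.4 CPM in KO mice, an overlap by 1 mouse (SE 0.608, limma adjusted p = 0.612). Ipo5, an importer of ribosomal proteins and histones, had the smallest difference, with a log2 fold change of 0.05 (95% interval -0.68 to 0.78).

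Ipo4, a histone importer, was the most abundant of these receptors per kb but also the least even. It was measured at 57.3, 86.4 and 19.4 CPM in control and 107, 86.4 and 9.45 CPM in KO mice, so that both groups spanned low and high values (log2 fold change 0.23, SE 0.859). An overlapping gene model on the same strand, Gm49378, covers 55.32% of its exonic bases. Ipo7, Ipo8, Ipo9, Ipo11, Tnpo2 and Tnpo3 had log2 fold changes from -0.44 to 0.73. Without control 2, those of Ipo7, Ipo9 and Tnpo2 came to -0.04, 0.03 and -0.03.

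Exportins differed from one another in direction. Xpo5, the carrier of microRNA precursors, was at 22.6, 4.61 and 18.5 CPM in control and 54.4, 38.6 and 32.8 CPM in KO mice. All KO mice lay above all control mice, and control 2 was lowest. The mean was 15.2 ± 9.43 CPM in control and 41.9 ± 11.2 CPM in KO mice (SD, n = 3 each), a log2 fold change of 1.76 (SE 0.598, limma adjusted p = 0.444) that was 1.06 without control 2.

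Xpot, the tRNA exportin, was lower in every KO mouse, at 15.6, 23.9 and 24.7 CPM against 40.8, 33.2 and 30.1 CPM (log2 fold change -0.80, SE 0.392, limma adjusted p = 0.56). Xpo1 (CRM1), the main exporter of proteins with a leucine-rich export signal, stood at 38.4, 70.5 and 42.3 CPM in control and 9.52, 39.6 and 43.9 CPM in KO mice. KO 2 and KO 3 lay within the control range and KO 1 lay far below it. The log2 fold change of -1.17 (SE 0.582, limma adjusted p = 0.564) was -0.22 without KO 1.

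Ipo13, which carries cargo in both directions, was at 16.6, 0.652 and 16.8 CPM in control and 31.1, 43.4 and 16.4 CPM in KO mice (log2 fold change 2.30, SE 1.11, and 0.79 without control 2). Xpo6, the exporter of actin with profilin, was at 21.4, 0 and 40.9 CPM in control and 73.0, 18.3 and 44.1 CPM in KO mice, a KO mean 2.17 times the control mean with overlap (log2 fold change 0.49, SE 0.616, without control 2). Xpo4, Xpo7 and Ranbp17 had log2 fold changes of 0.50, -1.19 and 0.25, with overlapping groups and SE between 0.562 and 1.19, and that of Ranbp17 was -0.53 without control 2.

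Of the Ran-binding proteins, Ranbp1, which assists GTP hydrolysis by Ran, was at 69.2, 125 and 95.8 CPM in control and 108, 106 and 135 CPM in KO mice. The groups overlapped (log2 fold change 0.29, 95% interval -0.33 to 0.90), and 31.39% of its exonic bases overlap Trmt2a on the other strand. Ranbp9, a scaffold protein of a ubiquitin ligase complex, was at 28.8, 172 and 60.5 CPM in control and 16.4, 17.8 and 68.9 CPM in KO mice. Control 2 was far above the rest, and the log2 fold change of -1.46 (SE 0.801) was -0.78 without it. Ranbp3 and Ranbp10 had log2 fold changes of -0.19 and -1.16.

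The 4 members left untested had almost no reads. Kpna7, an importin alpha of oocytes and early embryos, and Nup62cl had 0 counts in all 6 libraries, which allows up to 0.0617 to 0.116 CPM in a library for counting error alone. Ranbp3l had 1 count in control 1, and Nup210l had 60 counts in KO 3 and 0 elsewhere.

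Per kb, mean levels of the tested members over the 6 mice ran from 0.373 CPM per kb for Ranbp17 to 28.0 CPM per kb for Kpna2. Ranbp1 came next with 23.7 ± 5.13 CPM per kb (SD, n = 6), inside the range of 15.1 to 53.1 CPM per kb that Kpna2 covered. The order of these genes differed by group, with Ranbp1 at 21.5 and Kpna2 at 17.0 CPM per kb in control mice and at 25.9 and 39.1 CPM per kb in KO mice. Ipo4 with 13.1 ± 8.45, Kpnb1 with 8.98 ± 2.80 and Nup54 with 8.68 ± 2.41 CPM per kb followed, and these 3 did not differ beyond their spread. Between mice of a group, the members varied about as much as other genes, with a median pooled SD of 0.743 on the log2(CPM + 0.5) scale against 0.71 for all tested genes. The most even was Tnpo3, with a pooled SD of 0.284.

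Part of that spread came with control 2. It had 0 counts for 5 of the 48 members (Nup43, Nup35, Nup62, Xpo6 and Nup107), or 10.4%, beside 16.0% of all genes, and it was the lowest library for 17 members (35.4%, beside 33.3% of all genes). For 6 members, Nup214 and these 5, every KO library held at least 10 counts and at least 1 control library did not, and no member showed the reverse. Control 2 was under 10 counts for all 6, beside 20.0% of all genes, and control 3 for 1, beside 4.67%. The KO libraries were under 10 counts for 0 members, beside 6.95% to 12.4% of all genes. How many of all genes show the same pattern was not counted. KO 1 was the lowest library for 13 members (27.1%, beside 17.2%). Without control 2, the log2 fold change turned sign for 8 members (Ipo5, Ipo11, Kpna4, Nup88, Nup98, Nup214, Ranbp17 and Tnpo2). For the 4 members higher in KO at an unadjusted p under 0.05, every KO mouse lay above every control mouse. Their positive sign without control 2 was therefore fixed beforehand and checks nothing. The size of the log2 fold change could shift, and that of Kpna2 shifted least, from 1.17 to 1.07.

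**Figure D5:**
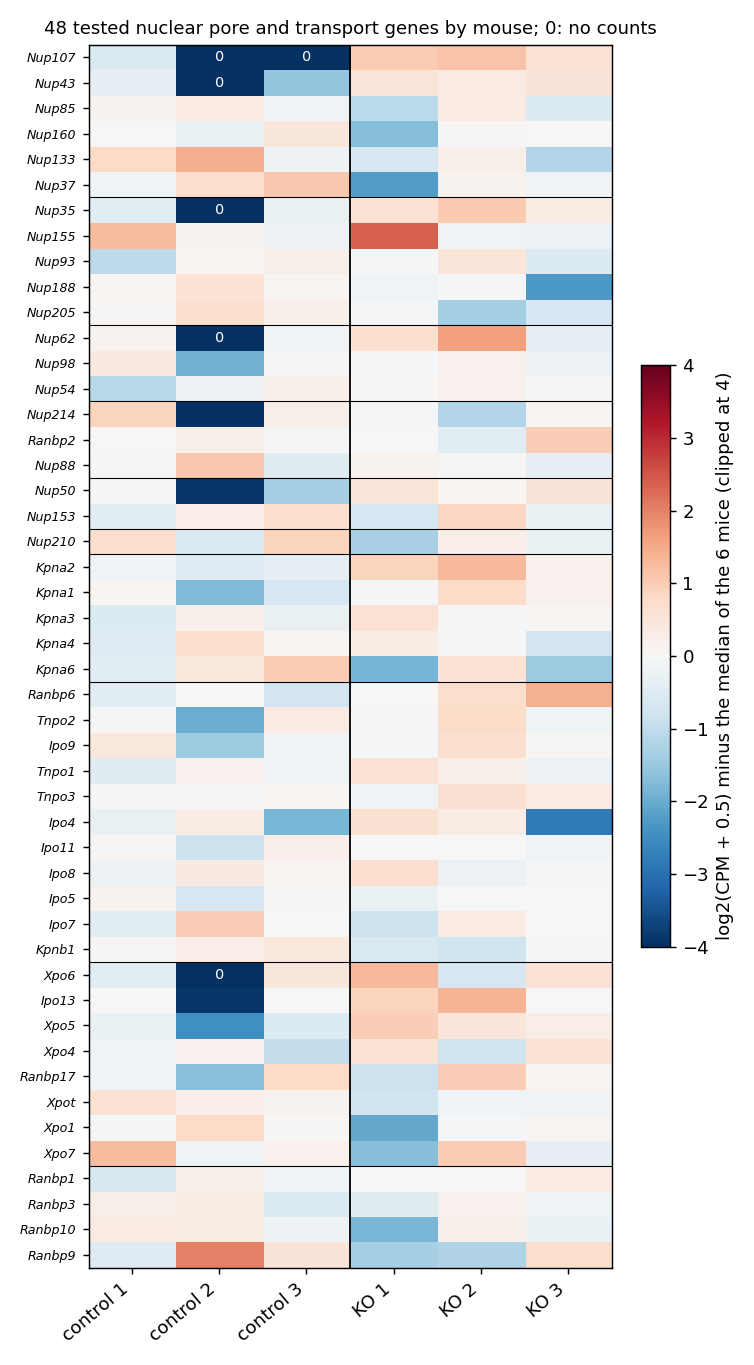
Level of the 48 tested genes (rows, grouped by role with the nucleoporins first) in each mouse (columns), as log2(CPM + 0.5) minus the median of the 6 mice, with red above and blue below that median and 0 printed where a library had no counts. Control 2 holds 5 of the 6 cells without counts and most of the darkest blue cells, and the remaining cell without counts is Nup107 in control 3.

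Other genes of nuclear transport, outside the naming rule, were tested in the same way. Of 36, none passed the adjusted threshold in limma, edgeR or DESeq2, and in limma 1 (2.78%) had an unadjusted p under 0.05, beside 9.27% of all genes. That gene, the mRNA export cofactor Nxt2, was at 11.7, 18.1 and 13.1 CPM in control and 0, 0.514 and 4.97 CPM in KO mice, lower in every KO mouse (limma adjusted p = 0.452). Ran itself was at 177, 186 and 200 CPM in control and 199, 335 and 285 CPM in KO mice, with KO 1 just inside the control range (log2 fold change 0.47, SE 0.227, limma adjusted p = 0.558). The Ran regulators Rangap1 and Rcc1 had log2 fold changes of -0.68 (SE 0.514) and 1.12 (SE 0.809).

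Cse1l, which returns importin alpha to the cytoplasm, was at 84.3, 18.9 and 59.3 CPM in control and 117, 75.2 and 24.4 CPM in KO mice (log2 fold change 0.55, SE 0.669, and -0.09 without control 2). Nutf2, which imports Ran, was at 60.3, 77.2 and 66.8 CPM against 79.8, 50.7 and 77.1 CPM (log2 fold change 0.02, SE 0.281). Nxf1, the bulk mRNA exporter, was at 141, 279 and 126 CPM in control and 155, 142 and 161 CPM in KO mice (log2 fold change -0.16, SE 0.31). Rae1, an mRNA export factor at the pore, was at 49.7, 24.6 and 42.7 CPM in control and 1.38, 37.5 and 38.5 CPM in KO mice, and the log2 fold change of -2.36 became 0.01 without KO 1.

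Stretches of alternating TG, which are UG in RNA, were counted over whole gene bodies because TDP-43 binds such repeats. A run of at least 12 bases was present in 42 of the 48 members (87.5%) and 66.8% of 13060 tested genes found in the annotation. Members are longer, with a median gene length of 48.9 kb against 22.6 kb, and per 10 kb the median was 0.806 runs for members and 0.686 for all genes. The 6 members without a run were Kpnb1, Ipo4, Ipo13, Nup54, Nup62 and Ranbp6. The 4 members higher in KO at an unadjusted p under 0.05 each hold at least 1 run, all shown here in introns, and these are printed because they are the longest runs of those genes. In each, capitals mark the run, between 10 bases of flank, along the strand of the gene.
Kpna2 intron 4: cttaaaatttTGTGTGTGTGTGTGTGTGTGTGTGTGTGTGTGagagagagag
Nup107 intron 5: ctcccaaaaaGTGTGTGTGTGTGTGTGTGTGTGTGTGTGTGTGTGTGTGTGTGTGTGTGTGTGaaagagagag
Nup50 intron 3: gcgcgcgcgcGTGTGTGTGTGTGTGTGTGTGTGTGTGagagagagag
Xpo5 intron 13: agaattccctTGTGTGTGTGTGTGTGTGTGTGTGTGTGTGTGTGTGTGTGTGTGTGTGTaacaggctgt

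In GRCm39 coordinates the runs are chr11:106883268-106883299 on the minus strand in Kpna2 (32 bases), chr10:117618429-117618481 on the minus strand in Nup107 (53 bases), chr15:84816213-84816239 on the plus strand in Nup50 (27 bases) and chr17:46533046-46533094 on the plus strand in Xpo5 (49 bases). Kpna2 holds 1 run, Nup50 1, Nup107 4 and Xpo5 5. Gene counts do not show whether TDP-43 bound any of them, and gene-level values carry no splicing information.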

How the data were processed

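RNA-Seq libraries were made from sorted ECs by a low-input SMARTseq2 protocol, whose RNA input and number of amplification cycles varied between libraries and were not given per library. The authors mapped reads to GRCm39 with STAR 2.7.8a and deposited expected counts per gene (GENCODE M30) from RSEM 1.3.0, versions per the submitters' processing notes; these estimated counts were rounded to whole numbers. Members and gene lists were chosen with earlier results of these data known. Counts were filtered (edgeR 4.0.16 filterByExpr), TMM scaled and fitted over all genes with limma 3.58.1 (voom) in R 4.3.3, control (n = 3) against KO (n = 3), no covariate, with Benjamini-Hochberg adjusted p under 0.05. CPM are TMM scaled. The labels number the replicates of each group but do not say whether each came from a separate animal. The p-values reflect the spread between these libraries. Intervals of counting error and floors (3 counts) cover counting error only, as the libraries carry no molecular identifiers.

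Named in full were the 12 members with the smallest p, in each role group the member highest per kb and the one with the largest absolute log2 fold change at a mean count of at least 100, and Kpnb1, Kpna2, Tnpo1 and Xpo1. Of the other transport genes these were Ran, Rangap1, Rcc1, Cse1l, Nutf2, Nxf1 and the 3 with the smallest p. Nup188 and Nup205 were added because their groups did not overlap. Other members are given by range or log2 fold change. Levels per kb used exonic lengths, and sequences used the genome, of GRCm39 with GENCODE M39, in which 98.7% of identifiers and 52 of 52 members were found. Alternatives were edgeR quasi-likelihood and DESeq2 1.42.0 tests, other scalings, filters and weights, the replicate block and leaving out each mouse. The scripts were tested on simulated data.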

Additional observations from a re-analysis of the deposited data

How the results depend on the processing

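Of 571 values of 34 genes described in full under 17 alternatives, 547 kept direction and side of the threshold. The only member called at an adjusted p under 0.05 was Kpna2, with DESeq2 (1 gene higher, of 48 members), which also called Tardbp (log2 fold change -1.65, adjusted p = 0.0221). DESeq2 called 247 of 13107 tested genes in all, against 18 in limma and 0 in edgeR (848 at an unadjusted p under 0.05). The number of members higher at an unadjusted p under 0.05 was 4 in the main analysis, 2 with edgeR, 2 with DESeq2, 10 with quantile normalization and 8 with scaling to endothelial markers. The number lower was 1, then 0 with library size only, quantile normalization, endothelial markers or at least 10 counts in every library, and 0 (without KO 1) to 3 (without control 1) when 1 mouse was left out. Of all genes, 9.27% had an unadjusted p under 0.05 in either direction in the main analysis. That share was 6.47% with edgeR, 8.62% with DESeq2, 10.3% with quantile normalization and 9.2% with endothelial markers. Shares by direction over all genes were not counted under the alternatives. Members without overlap and higher in KO numbered 6, then 11 by library size only, 10 by endothelial markers and 7 to 10 without 1 mouse. Those lower numbered 4, then 2 by library size only, 1 by endothelial markers and 4 to 9 without 1 mouse, and groups of 2 and 3 mice overlap less often by construction. Of all genes, 15.3% were without overlap in either direction in the main analysis. That share was 15.6% by library size only, 15.1% by endothelial markers and 22.9% to 25.5% without 1 mouse. The members' median log2 fold change of 0.23 became 0.39 with library size only and 0.48 with endothelial markers, and ranged from 0.071 (without control 2; 0.087 without KO 2) to 0.22 without 1 mouse. Other causes were not tested.

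Over all 48 tested members, direction reversed under at least 1 alternative for 16, namely Nup88, Nup93, Nup98, Nup153, Nup155, Nup214, Ranbp2, Ranbp3, Ranbp17, Kpna4, Ipo4, Ipo5, Ipo7, Ipo8, Ipo11 and Tnpo2. Among the 34 genes described in full it reversed for 8, none with an adjusted p under 0.05. Nup214 (1.90) was -0.33 with edgeR, -0.28 with DESeq2, -0.34 with quality weights and -0.50 with the replicate block, and lay between -0.95 (without control 2) and 3.59 without 1 mouse. Nup88 (-0.19) was 0.046 with endothelial markers, 0.12 with quality weights and -0.54 to 0.24 without 1 mouse. Nxf1 (-0.16) was 0.03 with library size only, 0.084 with endothelial markers, 0.095 with quality weights and -0.38 to 0.19 without 1 mouse. Cse1l (0.55) was -0.050 with quality weights and -0.093 to 1.09 without 1 mouse. Without 1 mouse, Ipo4 (0.23) ranged from -0.54 to 1.12, Nup93 (0.23) from -0.18 to 0.48, Nutf2 (0.02) from -0.14 to 0.21 and Rae1 (-2.36) from -3.31 to 0.013. The cause was not tested.

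The labels do not say whether replicate numbers pair the mice. Same-numbered mice correlated at -0.071, -0.129 and -0.023 in their deviations from the group means, and differently numbered mice at -0.041 to 0.124. With 3 mice per group, such correlations cannot show whether mice shared a litter or a processing day. With the replicate block 22 genes were called in all, no member among them, the smallest adjusted p of a member being 0.368 (limma). Of the 48 members 42 had at least 10 counts in every library and 6 did not, and whether depth or the spread between mice limits the calls was not tested.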

Other observations

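Genes of the nuclear envelope and lamina, the membrane and scaffold in which the pores sit, were examined beside the pore genes. None of 17 tested passed the adjusted threshold in limma, and 3 had an unadjusted p under 0.05, all higher in KO mice (17.6%, beside 4.26% of all tested genes). Lmna, which encodes lamins A and C, was at 45.9, 36.3 and 27.3 CPM in control and 90.0, 80.3 and 104 CPM in KO mice, without overlap (log2 fold change 1.34, SE 0.299, limma adjusted p = 0.233). Tor1aip1, an inner nuclear membrane protein that binds lamins, was at 40.2, 23.1 and 22.8 CPM in control and 78.9, 46.6 and 41.5 CPM in KO mice, without overlap (log2 fold change 1.03, SE 0.405, limma adjusted p = 0.498). Lbr, the lamin B receptor, was at 115, 52.3 and 53.3 CPM in control and 135, 116 and 104 CPM in KO mice, with control 1 inside the KO range (log2 fold change 0.81, SE 0.33, limma adjusted p = 0.513).

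The nucleoporin genes Nup42 and Nup58 are listed in the table under older symbols and so fell outside the naming rule. Nup42, listed as Nupl2, was at 9.23, 39.1 and 12.1 CPM in control and 1.46, 3.95 and 8.87 CPM in KO mice, lower in every KO mouse (log2 fold change -2.37, SE 1.3, limma adjusted p = 0.59). Nup58, listed as Nupl1, had counts in KO 2 alone (0.931 CPM), and 53.6% of its 51-base stretches also occur in Gm49336, which was at 33.2, 44.9 and 24.9 CPM in control and 51.3, 26.0 and 37.7 CPM in KO mice.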
